A study of Mus musculus with 6 samples.

Results

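The immediate early genes *Fos*, *Jun*, *Junb*, *Jund*, *Egr1*, *Atf3*, *Ier2*, *Btg2*, *Zfp36* and *Dusp1* were taken by symbol from hepatic RNA-seq of mice with a partial deficiency of plasminogen activator inhibitor 1 (PAI-1) and their wild-type (WT) littermates. All 10 were listed among 24421 genes, and each had a mean normalized count above 10, the minimum used for ranking, which 12971 genes passed. The study compared livers of 3 WT and 3 *Pai-1*+/- mice. By the labels all were C57BL/6 mice aged 21 weeks and fed ad libitum, and by the study's text they were of the J substrain, slightly younger and on standard chow. The mutants carried 1 null copy of the PAI-1 gene in every tissue. The labels state male sex for the WT mice alone, and the study describes both groups as male.

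Immediate early genes are transcribed within minutes of a stimulus, from factors already present in the cell, and most of their mRNAs are short-lived. In liver they are known for their rise after partial hepatectomy, after injury and during the handling or dissociation of tissue. *Fos*, *Jun*, *Junb*, *Jund* and *Atf3* encode leucine zipper proteins that pair to form AP-1 and related dimers. *Egr1* encodes a zinc finger transcription factor and *Ier2* a nuclear protein, while *Zfp36* (tristetraprolin), *Dusp1* (a phosphatase of MAP kinases) and *Btg2* (an antiproliferative protein that promotes deadenylation) act as brakes on the response.

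Only the level of each gene averaged over all 6 libraries is described here. The deposited counts are headed by animal numbers that match no sample label and were not used, so no value per mouse and no error is given. The authors' own comparison of *Pai-1*+/- with WT livers was deposited but not used here, so no comparison of the genotypes is given either. The levels are the authors' means of normalized counts, that is, of counts divided by a factor for the size of each library. Because long transcripts collect more reads, genes were compared with each other per kilobase of their longest annotated transcript. A pooled mean cannot tell a transcript made by every hepatocyte from one made by a small population of cells, or few cells of a type from little RNA per cell.

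Sequence in the 3' untranslated region (UTR) is shown first, since AU-rich elements there are the sites at which tristetraprolin, itself encoded by a member, binds mRNA and shortens its life. The element was searched as the pentamer ATTTA on the transcribed strand, and as the longer nonamer TTATTTATT, which contains the pentamer. Windows of 30 bases from GRCm38 (mm10) are printed 5' to 3' on the strand of the gene, with pentamers in capitals, for the 3 members with the nonamer (*Fos*, *Zfp36* and *Dusp1*) and for *Jun* and *Btg2*, which hold 2 pentamers within 30 bases. All lie in the last exon, at chr12:85477103-85477132 on the plus strand for *Fos*, and on the minus strand at chr7:28376961-28376990 for *Zfp36*, chr17:26506154-26506183 for *Dusp1*, chr4:95049210-95049239 for *Jun* and chr1:134076018-134076047 for *Btg2*.
Fos: tgttttcaATTTATTTAttaagatggattc
Zfp36: ggccctttATTTAtgacgactttATTTAtt
Dusp1: tggtccttATTTATTTAacacccccctcac
Jun: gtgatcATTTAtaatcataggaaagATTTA
Btg2: aaATTTAtttgtagatgtgtgcaatATTTA

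In *Fos* and *Dusp1* the pentamers in the window overlapped by 1 base, whereas in *Zfp36*, *Jun* and *Btg2* they stood apart. The *Dusp1* window began 97 bases after the stop codon, the *Zfp36* window 568 bases and the *Fos* window 645 bases after it. The *Btg2* window lay farthest from the stop codon, at 1322 bases.

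At least 1 pentamer was present in the 3' UTR of 9 of the 10 members. Among all 12420 genes with a mean above 10 and an annotated 3' UTR, 69.0% had one, and of the 6036 whose 3' UTR lay within the members' range of length, 74.2% had one. *Ier2*, with 755 bases of 3' UTR, had none. At least 3 pentamers were found in 6 members, beside 37.8% of all genes and 32.8% of those in the same range of length. The nonamer was found once each in *Fos* and *Zfp36* and at 2 places in *Dusp1*, that is, in 3 of 10 members beside 7.83% of all genes and 6.51% of those in the same range of length.

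Per kilobase of 3' UTR, the members had a median of 2.89 pentamers and all genes a median of 1.29. *Dusp1* had the highest density, with 4 pentamers in 690 bases (5.80 per kb), and *Fos* followed with 4 in 815 bases (4.91 per kb). *Junb* had 2 in 485 bases (4.12 per kb). These 3 lay in the highest 10% of genes by density. *Zfp36* itself had 3 pentamers in 774 bases (3.88 per kb), and *Jun* had 4 in 1233 bases (3.24 per kb).

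The lower densities were 2.53 per kb in *Atf3*, 2.27 per kb in *Btg2*, 1.88 per kb in *Jund* and 1.64 per kb in *Egr1*, all above the median of all genes. *Btg2* had the most pentamers, 5, in the longest 3' UTR of the members, 2199 bases. The members' 3' UTRs were not richer in A and T than those of other genes, with a median of 54.3% beside 55.6%, and the plot of pentamers per kb shows the members in order of density. Of the members at the low end, *Jund* (42.4%) and *Ier2* (41.5%) also had the lowest content of A and T.

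**Figure D1:**
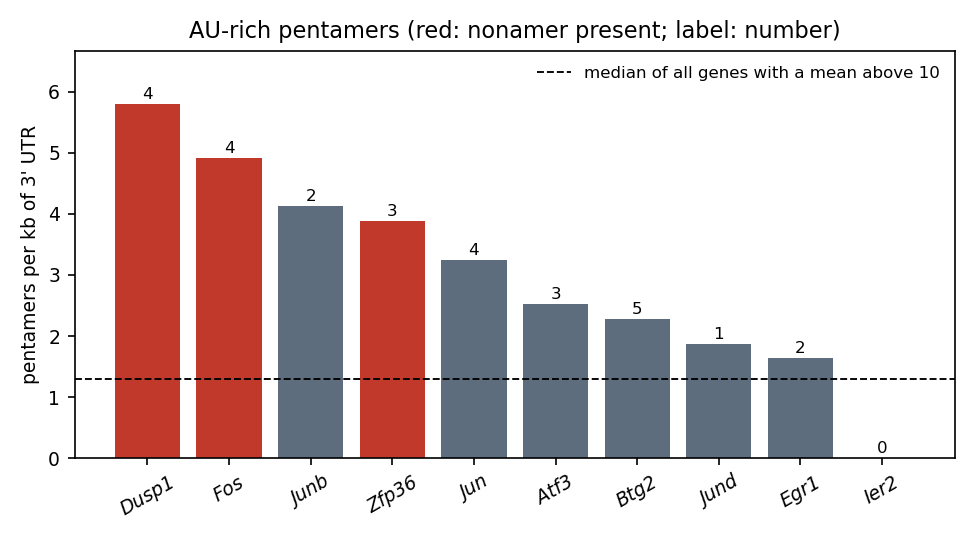
AU-rich pentamers per kilobase of 3' UTR (vertical axis) in the 10 members, with the number of pentamers above each bar, the nonamer marked by red bars and the median of all genes with a mean above 10 as a dashed line. *Dusp1*, *Fos* and *Zfp36* hold the nonamer, and every member but *Ier2* stands above the median of 1.29 per kb.

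Promoters came from RefSeq (GRCm38.p6), as 250 bases before to 50 bases after the annotated start, and 8 of the 10 members matched an entry. The promoters of *Egr1* and *Ier2* were not searched. They are shown for the 4 members that hold a cyclic AMP response element (CRE), its short form with a TATA box before the start, or a serum response element core, since CREB and serum response factor are the textbook activators of this class. Printed on the strand of the gene are the 200 bases before the start for *Fos* (chr12:85473690-85473889, plus strand) and *Btg2* (chr1:134079156-134079355, minus strand). For *Zfp36* (chr7:28379267-28379296) and *Dusp1* (chr17:26508590-26508619), both on the minus strand, 30 bases around the motifs are printed, because exons of their other transcripts reach into the stretch. Capitals mark the CRE TGACGTCA and its short form TGACG on either strand, the TATA box TATAAA, the E-box CACGTG and the CArG box.
Fos: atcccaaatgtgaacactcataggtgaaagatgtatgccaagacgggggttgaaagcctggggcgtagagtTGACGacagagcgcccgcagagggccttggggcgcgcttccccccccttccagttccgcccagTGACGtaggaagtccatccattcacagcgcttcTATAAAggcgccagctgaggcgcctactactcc
Btg2: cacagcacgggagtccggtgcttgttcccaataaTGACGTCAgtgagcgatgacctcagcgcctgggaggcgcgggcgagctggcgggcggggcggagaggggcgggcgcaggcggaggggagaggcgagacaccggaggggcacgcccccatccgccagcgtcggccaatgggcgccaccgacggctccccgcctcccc
Zfp36: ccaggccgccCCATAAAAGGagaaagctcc
Dusp1: cgggTGACGTCAccgcccggtCACGTGtct

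The full CRE stood in 2 of 8 members, at positions -166 to -159 of *Btg2* and -143 to -136 of *Dusp1*, where negative positions count bases before the start. It was present in 1.79% of all 32851 promoters of that length and in 2.88% of the 12659 whose gene had a mean above 10. The short form, which every full CRE contains on both strands, stood in 5 of 8 members (*Fos*, *Junb*, *Atf3*, *Btg2* and *Dusp1*) beside 20.8% of all promoters and 29.9% of those of genes with a mean above 10. *Fos* held it at -129 to -125 and at -66 to -62, and *Atf3* held it at -7 to -3 on the other strand.

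The CArG box, the core of the serum response element, was found in *Zfp36* alone of the 8 members searched, at -58 to -49. It was in 1.63% of all promoters and 1.30% of those of genes with a mean above 10. Bases farther than 250 before the start were not searched, so elements there would be missed, and *Egr1* has no value. A TATA box stood at -33 to -28 of *Fos*, and the same letters stood at positions 1 to 6 of *Junb*, after the annotated RefSeq start. That made 2 of 8 members beside 13.6% of all promoters and 7.77% of those of genes with a mean above 10. In the 250 bases before the start alone it was 1 of 8. The E-box, bound by basic helix-loop-helix proteins, was found only in *Dusp1*, at -126 to -121. It was in 7.15% of all promoters and 9.74% of those of genes with a mean above 10.

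GC boxes (GGGCGG, either strand), the sites of Sp1 family factors, stood in 6 of 8 members, from 1 in *Fos*, *Jun* and *Zfp36* to 5 in *Atf3*, beside 35.7% of all promoters and 60.2% of those of genes with a mean above 10. The AP-1 letters TGANTCA were in none of the 8 windows, in 7.81% of all promoters and in 5.47% of those of genes with a mean above 10. The members' promoters had a median G and C content of 64.2%, beside 52.7% for all promoters, and 7 of 8 lay above that median. The content was not computed for genes with a mean above 10 alone, so a difference from other expressed genes was not tested. No searched motif was found in the *Jund* window. Its RefSeq start lies 1210 bases from the nearest start in the GENCODE annotation, while those of the other 7 lie within 35 bases of one.

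**Figure D2:**
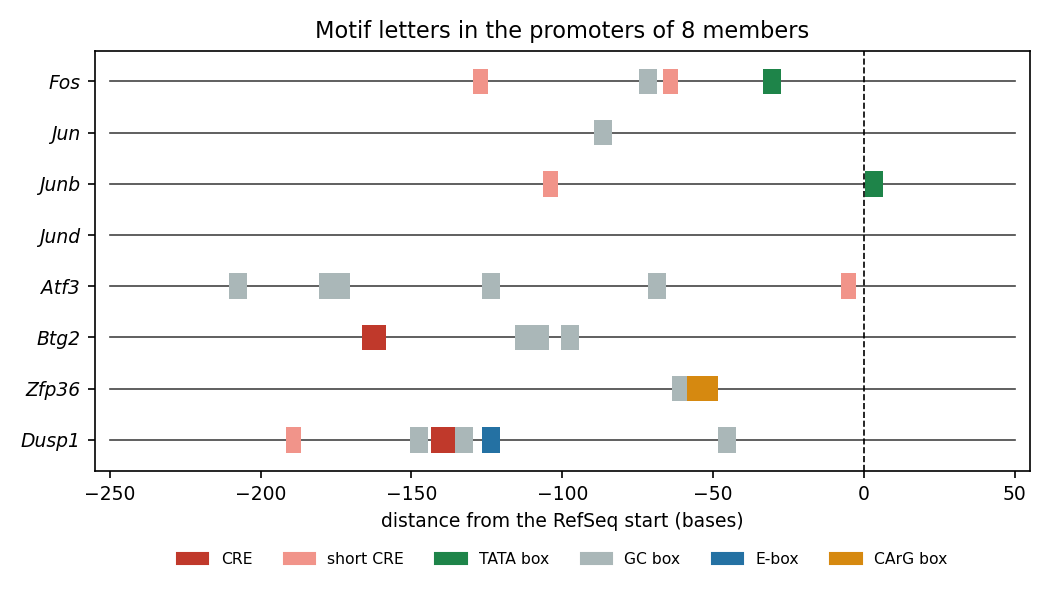
Positions of the searched letters in the promoters of 8 members (rows), with the distance from the RefSeq start in bases on the horizontal axis, the start as a dashed line and 1 colour per motif. The full CRE appears in *Btg2* and *Dusp1*, the CArG box in *Zfp36*, and the *Jund* row is empty.

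Together the 10 genes took 0.134% of the summed mean normalized counts. Their median mean normalized count was 2855, beside 440 for all genes with a mean above 10. Per kilobase, the median of the members was 1530 and that of all ranked genes was 129. By this measure 7 of the 10 lay in the highest 10% of 12871 ranked genes and 9 lay in the highest 25%. The first of these counts depended on the length used, since 1 member lay in the highest 10% when every gene was divided by the median length of its transcripts, whereas 8 still lay in the highest 25%. Ranked among genes with a mean above 100 alone, 4 members lay in the highest 10% and 9 in the highest 25%. Among the 12871 genes the members spanned from percentile 58.0 (*Atf3*) to 96.3 (*Zfp36*).

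**Figure D3:**
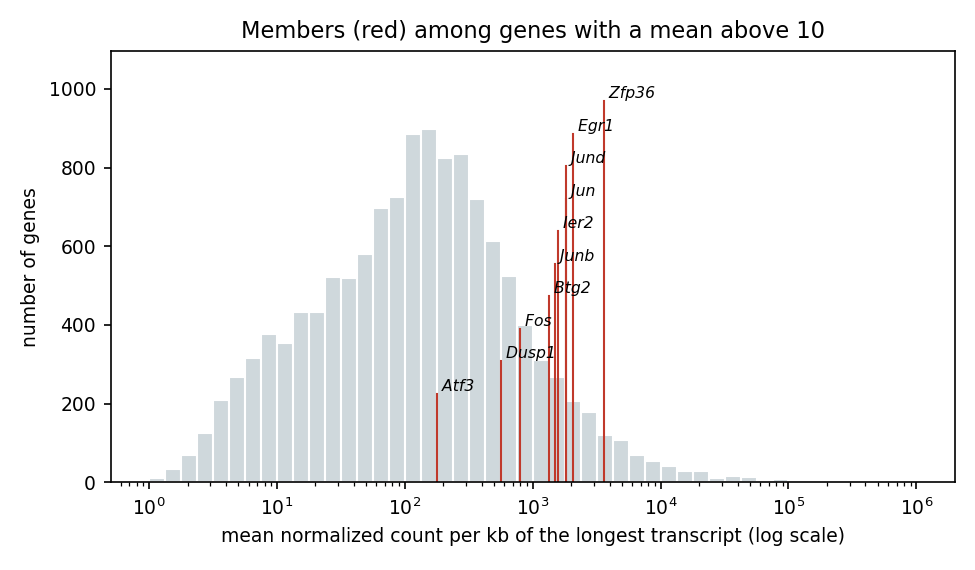
Number of genes (vertical axis) by mean normalized count per kilobase of the longest transcript (horizontal axis, log scale) for genes with a mean above 10, with the 10 members as red lines whose height carries no value. *Atf3* stands near the middle of the distribution, and the other 9 members stand to its right, between 567 and 3616 counts per kb.

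Among the AP-1 proteins, the 3 members of the JUN family were at similar levels per kilobase. *Jund*, which encodes the JUN protein known for expression in resting cells, had a mean of 3025 normalized counts, or 1813 per kb. *Jun*, the prototype of the family, had a mean of 5770 and a level of 1809 per kb, and the ratio of *Jund* to *Jun* was 1.002. *Junb*, known as a weaker activator that can oppose *Jun*, had a mean of 2686 and a level of 1485 per kb.

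*Jun*, *Junb* and *Jund* thus contributed 35.4%, 29.1% and 35.5% of the family's summed level per kilobase. The order of the 3 was not fixed, as *Junb* became the highest, at 39.2% of the sum, with the median length of its transcripts. *Fos*, which has no stable homodimer and needs a JUN partner to bind DNA, had a mean of 1687 normalized counts and 800 per kb. It stood below each of the 3 *Jun* genes on this scale, and between *Junb* and *Jund* with the median transcript length, where its level was 2071 per kb.

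*Fos* made up 86.0% of the summed level per kilobase of the 4 listed genes of its family, and *Fosl1* was listed at 0. *Atf3*, a stress-induced factor that represses transcription as a homodimer, was the lowest of the 10 members, with a mean of 353 normalized counts and 178 per kb. *Zfp36*, the highest member, was 20.3-fold above *Atf3* per kilobase. Within the 6 listed ATF and CREB genes *Atf3* made up 14.4% of the summed level, or between 4.36% and 19.9% with the other lengths.

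The 14 other genes of the AP-1 group, which can pair with JUN or FOS proteins, were mostly lower. Of these, 11 had a mean above 10, and the median level of all 14 was 92.0 per kb. They included *Atf2* (285 per kb), a JUN partner activated by stress kinases, and *Mafg* (175 per kb), the small partner of NRF2. Each of the 3 *Jun* genes and *Fos* stood above all 14 of them with each of the 3 lengths, while *Atf3* stood below 2 of them with the longest transcript and below 5 with the median transcript.

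*Egr1*, which binds GC-rich DNA and is induced through serum response factor, was the second highest member, with a mean of 9245 normalized counts and 2062 per kb. It carried 99.6% of the summed level of the 3 listed EGR genes, and at least 99.1% with either of the other lengths. *Ier2*, an intronless gene, had a mean of 2399 normalized counts and 1576 per kb. It carried 96.6% of the summed level of the 3 listed IER genes. In both sets of 3 listed genes a single gene accounted for nearly all of the summed level, and other genes of these families were not examined.

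*Zfp36* had the highest level of the 10 with each of the 3 lengths, with a mean of 10089 normalized counts and 3616 per kb. Its level was 1.75-fold that of *Egr1*, the next member. *Zfp36* made up 56.6% of the summed level per kilobase of its 4 listed family genes, followed by *Zfp36l1* (2320 per kb), which encodes another protein that binds AU-rich elements. With the median transcript length the order turned, with 38.8% for *Zfp36* and 56.6% for *Zfp36l1*, while with all exons merged *Zfp36* kept 51.2%. *Zfp36l2* had 454 per kb, and *Zfp36l3* was listed at 0.

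*Btg2* had a mean of 3670 normalized counts and 1338 per kb. It was not the highest of its family, as *Tob1*, another adaptor of the CCR4-NOT deadenylase, had 2373 per kb and 51.7% of the summed level of 6 listed genes, beside 29.1% for *Btg2*, and the order of these 2 genes was the same with each length. *Tob2* had 463 per kb and *Btg1* had 416 per kb, while *Btg4* was listed at 0.

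*Dusp1*, which removes the activating phosphates from p38, JNK and ERK, was the ninth of the 10 members with each of the 3 lengths, with a mean of 1312 normalized counts and 567 per kb. *Dusp6*, a phosphatase selective for ERK, stood above it at 1036 per kb, and *Dusp16* below it at 248 per kb. Among the 10 listed genes of the family *Dusp1* had 28.8% of the summed level and *Dusp6* had 52.5%. *Dusp6* stood above *Dusp1*, and *Dusp16* below it, with the other lengths as well. *Dusp10* had 40.8 per kb, and the lowest, *Dusp9*, had 0.49 per kb.

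**Figure D4:**
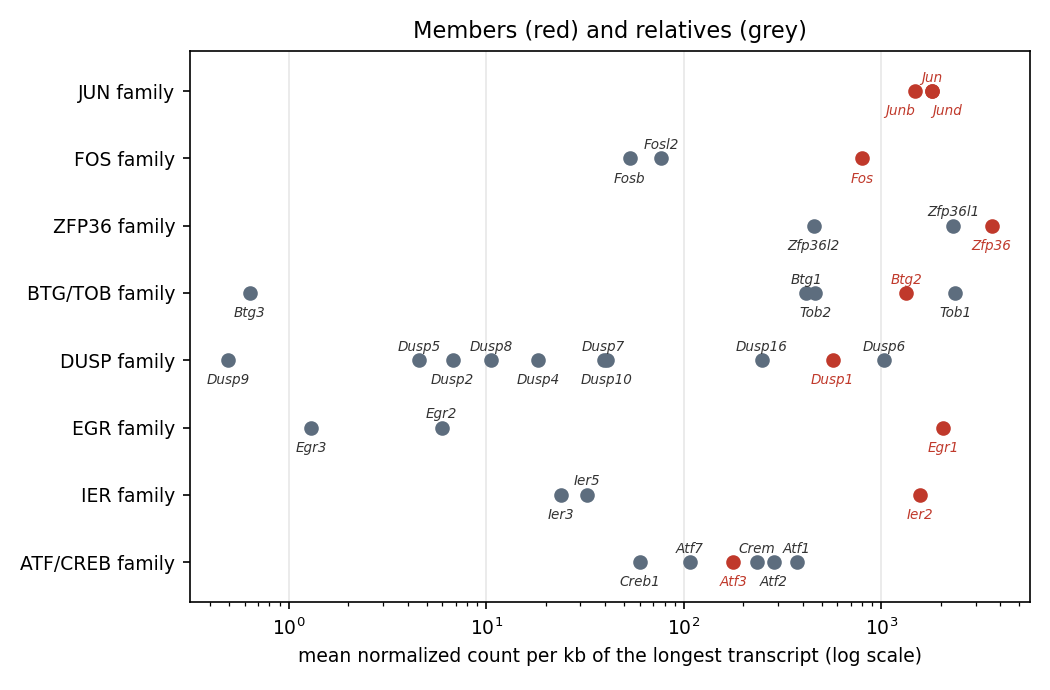
Mean normalized count per kilobase of the longest transcript (horizontal axis, log scale) for the members (red) and their relatives (grey), with 1 family per row and genes listed at 0 left out. *Egr1* and *Ier2* stand far from their relatives, the 3 *Jun* genes lie between 1485 and 1813 per kb, and *Tob1* and *Dusp6* lie above *Btg2* and *Dusp1*.

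The order of the members depended on the length by which the counts were divided, as the plot of member levels shows. *Zfp36* and *Egr1* were first and second, and *Dusp1* and *Atf3* were the lowest, with each of the 3 lengths. *Fos* moved from the eighth to the fourth place with the median transcript length, under which its level was 2.59-fold that with the longest transcript, and *Junb* moved from the sixth to the third, with a level 1.57-fold as high. The level of *Jun*, *Jund*, *Ier2* and *Btg2*, each with 1 annotated transcript, did not depend on it. With no error given here, neighbours in this order cannot be said to differ, and those nearest each other were *Jund* and *Jun*, with a ratio of 1.002, and *Ier2* and *Junb*, with a ratio of 1.06.

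**Figure D5:**
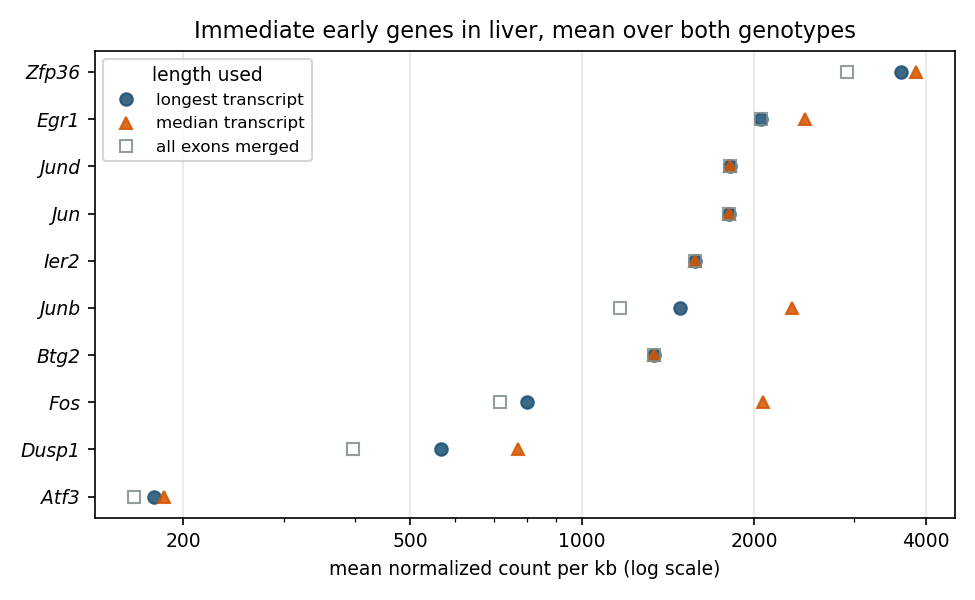
Mean normalized count per kilobase (horizontal axis, log scale) of the 10 members (rows), divided by the length of the longest transcript (circles), the median transcript (triangles) or all exons merged (squares). *Zfp36* is highest and *Atf3* lowest with each length, and *Fos* shifts most, from 800 to 2071 per kb.

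The members stood high among the listed genes of their own class. Of 29 other immediate early genes, 26 had a mean above 10, none lay in the highest 10% of genes per kilobase and 7 lay in the highest 25%. The highest were *Gadd45g* (1102 per kb), a stress-induced sensor of DNA damage and growth arrest, *Mcl1* (1078 per kb), an inhibitor of apoptosis, and *Nfkbia* (869 per kb), the inhibitor of NF-kB. All members except *Fos*, *Dusp1* and *Atf3* stood above each of these 29 genes, a count of 7. The count became 6 with the median transcript length. *Fos* then stood above all 29, while *Ier2* and *Btg2* stood below *Mcl1* (1724 per kb). *Atf3* stood below 13 of the 28 that had a level above 0. These counts depend on how the list was drawn. *Zfp36l1* (2320 per kb) and *Tob1* (2373 per kb) were kept with the relatives and not among the 29. Both stood above every member but *Zfp36* with the longest transcript. The median transcript length put *Zfp36l1* above *Zfp36* as well and *Tob1* below *Egr1*.

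The regulators upstream of the class were present at levels that differed by list, beside a median of 129 per kb for all ranked genes. All 12 listed partners and cofactors of serum response factor and CREB had a mean above 10, with a median of 76.3 per kb, between 46.3 per kb for *Elk1* and 476 per kb for *Crtc2*, the CREB coactivator of gluconeogenesis. *Atf1* (374 per kb) and *Crem* (236 per kb) followed. All 15 listed kinases of the MAP kinase cascades, which phosphorylate these factors and are the substrates of *Dusp1* and its relatives or act above them, had a mean above 10, with a median of 459 per kb. The highest were *Map2k2* (1248 per kb), *Map2k3* (904 per kb) and *Mapk14* (850 per kb), which encodes p38 alpha, and the lowest was *Mapk13* (5.68 per kb). *Zfp36*, *Egr1*, *Jund*, *Jun*, *Ier2*, *Junb* and *Btg2* stood above all of these regulators with the longest transcript or all exons merged. With the median transcript length they did not, as 6 of the 15 kinases stood above *Jun*, *Jund*, *Ier2* and *Btg2*, 3 above *Egr1* and *Junb*, and 1 above *Zfp36*. *Atf1* (1464 per kb with that length) also stood above *Btg2*. *Dusp1* stood below 7 kinases with the longest transcript, and *Atf3* stood below 10.

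By their longest annotated transcript the members spanned little of the genome and had few introns. *Jun*, *Junb*, *Jund* and *Ier2* each had a longest transcript of 1 exon, as did 4.91% of the 12458 protein-coding genes with a mean above 10. *Egr1*, *Btg2* and *Zfp36* had 2 exons, *Dusp1* had 3, and *Fos* and *Atf3* had 4. At most 4 exons were found in all 10 members and in 26.5% of the protein-coding genes, whose median was 8.

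From the first to the last base of the longest transcript the members spanned a median of 3286.5 bases of the genome, beside 20330 bases for all these genes. Every member lay below that median, and 7 lay in the lowest 10%. *Ier2* was the shortest, with 1522 bases, and *Atf3* the longest, with 13045 bases. Over all their annotated transcripts, however, the genes *Dusp1* and *Atf3* spanned 56539 and 47744 bases. The spliced transcripts differed less, with a median of 2210.5 bases beside 3405 bases.

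Some of the values carry an uncertainty from genes on the other strand, since the strand setting of the counting is not given in the sources used here. For *Jund*, 877 of 1668 exonic bases (52.6%) are shared with the antisense gene *Gm11175*, so reads of both genes cannot be told apart without strand. *Jun* shares 232 exonic bases (7.28%) with the antisense *Junos*, *Junb* shares 173 (7.52%) with *Prdx2*, *Zfp36* shares 125 (3.6%) with the antisense *Gm44710*, and *Dusp1* shares 11 (0.33%) with *Ergic1*. *Fos*, *Egr1*, *Atf3*, *Ier2* and *Btg2* share none. These partner genes were named after their overlap was seen. Stretches of 75 bases, the read length, were searched in the longest transcript of each member only. Of these, 45.9% in *Jund*, 5.07% in *Jun* and 1.07% in *Zfp36* also occurred in a transcript of another gene. None did in the other 7 members. Exonic bases outside the longest transcript were not covered, so this search does not settle the overlap of *Junb* with *Prdx2*.

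The tissue matched its label by marker genes. All 6 hepatocyte markers lay in the highest 10% of genes per kilobase, from 23887 per kb for *Tat* to 1059757 per kb for *Alb*. All 6 markers of Kupffer cells, 5 of endothelial cells, 4 of stellate cells and fibroblasts and 4 of cholangiocytes had a mean above 10, with medians of 380, 155, 89.4 and 55.04 per kb. The neutrophil markers *S100a8* and *S100a9* had 111 and 138 per kb, and the 3 lymphocyte markers had between 4.94 and 15.6 per kb. The red cell genes *Hbb-bs* and *Hba-a1* were both listed at 0. The filters of the counting are not given, so these values do not show that red cells were absent. Immediate early genes can be expressed in each of these cell types, and the part of each in the members' levels was not tested.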

How the data were processed

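RNA-seq of hepatic mRNA was analysed from 3 WT and 3 *Pai-1*+/- mice. Per the study, libraries from a KAPA mRNA HyperPrep kit were sequenced as 75-base single-end reads, aligned to mm10 with STAR and compared with DESeq2, and the submitters' processing notes also name HOMER. Versions, annotation, filters and strand setting are not given in the sources used here. The deposited table gives, as a signal, 1 value per gene that the authors computed by dividing counts by DESeq2 size factors and averaging the 6 libraries. Its other columns hold the authors' log2 fold changes, standard errors, statistics and p-values for their comparison, and were not used. The table of counts has 6 columns named by animal numbers that match no sample label. They were not used, and no column's genotype was inferred from its order or values. The test of genotype planned on the counts therefore could not be run, and depth per library is not given. The mean normalized counts sum to 30045982.

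The means were divided by transcript lengths from GENCODE M21 (GRCm38), to which 12871 of the 12971 genes with a mean above 10 were matched (99.2%), using older symbols where needed. Percentiles were taken among these genes. Motifs were searched on both strands of RefSeq promoters, and AU-rich elements on the transcribed strand of the 3' UTR of the longest coding transcript. Tables were handled in Python 3.11.15 with pandas 2.3.3 and NumPy 2.4.6, and plots were drawn with Matplotlib 3.10.9. The search and ranking steps were tested on simulated data. The members, lists and motifs were chosen with earlier results of these data known. The text names the members, the 3 highest and the lowest gene of each other list, and cell type markers. Some genes are not reported here. No test was made, so levels and shares are descriptions without replicate error.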

Additional observations from a re-analysis of the deposited data

How the results depend on the processing

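The number of members in the highest 10% of genes per kilobase, 7, became 1 with the median transcript length, which shortens the length of many other genes as well, and 4 among genes with a mean above 100, and stayed at 7 with all exons merged and among genes above 0. The number in the highest 25%, 9, was 8 with the median transcript length and 9 under the other alternatives. The members' median percentile per kilobase, 91.9, became 84.4 with the median transcript length, 93.4 with all exons merged, 94.0 among genes above 0 and 89.3 among genes above 100. With the 250 bases before the start alone, the members with a TATA box went from 2 to 1, and the counts for the other 6 motifs were as before. The counts of members with pentamers or the nonamer were as before when any transcript was allowed.

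No paired analysis was possible because the count columns carry no sample label or replicate number. For the same reason the planned comparison of the genotypes, its alternative count model, scaling and filter, and the fits that leave out a mouse were not run. Depth per library and the spread over libraries were not computed, since the count columns were not used, so the precision of each mean is not given here.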
